A study of Homo sapiens with 12 samples.

Results

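Fc receptors bind the constant part of antibodies, and 7 of their genes were followed in MV4-11, an established cell line from acute myeloid leukaemia that carries a KMT2A fusion and the FLT3-ITD mutation. The genes were FCGR1A, FCGR2A, FCGR2B, FCGR3A, FCGRT, FCER1G and FCAR, found by symbol as 7 of the 58051 genes in the deposited table of raw read counts. Polyadenylated RNA was sequenced from cells kept for 6 h in 0.1% DMSO, the vehicle, or in 200 nM of palbociclib, BSJ-03-123 or YKL-06-102, with 3 libraries in each of the 4 groups. Palbociclib inhibits the kinases CDK4 and CDK6, and the series' design text calls the other agents, BSJ-03-123 and YKL-06-102, phthalimide conjugates specific for CDK6. All groups are the same cell line, so nothing here separates this line from other leukaemias.

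The genes were chosen by name with earlier results of these libraries in view, and the measured values behind the choice were the higher counts of FCGRT and FCGR2A after YKL-06-102. The difference of FCGR2A between BSJ-03-123 and DMSO was also known. Values of the 7 genes in contrasts with YKL-06-102, and that difference, are therefore a description, without a p-value. Contrasts of palbociclib and of BSJ-03-123 with DMSO reuse the DMSO libraries behind the choice. Their p-values for FCGRT and FCGR2A are therefore not independent of the choice. Levels are CPM, the reads of a gene relative to the library total scaled by edgeR's TMM factors. A CPM is given ± its SD (n = 3 libraries) and a log2 fold change ± its standard error. Contrasts come from edgeR's quasi-likelihood fit of all 12 libraries, in which a gene was called at a Benjamini-Hochberg adjusted p below 0.05 over 14214 tested genes.

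Antibody receptors of myeloid cells fall into activating, inhibitory and transport receptors. Activating receptors for IgG signal through an immunoreceptor tyrosine-based activation motif (ITAM), either in their own tail, as in the product of FCGR2A, or in the adaptor chain made from FCER1G, which the products of FCGR1A, FCGR3A and FCAR need. The product of FCGR2B carries an inhibitory motif (ITIM) instead, and that of FCGRT, the neonatal Fc receptor, pairs with beta-2-microglobulin and returns IgG and albumin from endosomes to the cell surface.

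Library totals ranged from 18764307 to 25539858 counts. DMSO replicate 2 stood apart: its chi-square per degree of freedom was 5.87 and 8.91 in its pairs within the group. These pairs covered the 13700 and 13680 genes with enough counts in both libraries together. The value was at most 2.94 in any other pair of replicates. Whether replicates came from separate cultures is not stated, and the spread behind the p-values may therefore be technical. Of the 12 markers of myeloid identity that were examined, all had counts, with LYZ at 719 CPM, FLT3 at 413 CPM and CEBPA at 390 CPM over all libraries. CD68 and the monocyte antigen CD14 were low, at 0.673 and 0.211 CPM. The summed level of these markers lay between 2140 and 2160 CPM with DMSO, 2300 and 2340 with palbociclib, 2270 and 2280 with BSJ-03-123 and 2610 and 2640 with YKL-06-102. With YKL-06-102 7 of the 11 tested markers were called higher and 0 lower, beside 15.6% and 21.3% of all tested genes. LYZ went from 658 CPM with DMSO to 841 with YKL-06-102, whereas FLT3 was at 394 and 387 and HOXA9 at 47.1 and 45.5. The T-cell and NK markers summed to 327 to 400 CPM, mostly CD4 (321 CPM over all libraries). Of markers of other lineages, PECAM1 was at 138 CPM, KIT at 41.1, EPOR at 25.7, ITGA2B at 12.7, KRT18 at 11.5 and KRT8 at 7.16, while HBB, PF4, PPBP, CPA3, EPCAM and KRT19 were at 0. The part of the shift in the summed myeloid markers in the receptor values below was not tested. In bulk RNA, more cells expressing a gene and more RNA per cell cannot be told apart. Of the 6 B-cell markers 5 had counts, with MS4A1 at 0 and a summed level from 4.18 to 6.28 CPM over all libraries.

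Of the receptor genes, 4 had many counts, 1 was weak and 2 were near the limit of counting. FCER1G had 10438 counts over the 12 libraries, FCGRT 9831, FCGR2A 8226 and FCGR1A 3381, whereas FCGR2B had 151. FCGR3A, which encodes the low-affinity IgG receptor CD16a, had 1 count, in DMSO replicate 1, and a count of 0 in each other library allows up to 0.121 to 0.163 CPM. FCAR, the IgA receptor gene, had 10 counts: 3 with DMSO, 1 with BSJ-03-123, 0 with palbociclib and 6 with YKL-06-102, with exact Poisson 95% intervals of 0.619 to 8.77 counts, 0.0253 to 5.57, 0 to 3.69 and 2.2 to 13.1. These intervals and floors cover counting error only, and at this depth no difference of FCAR or FCGR3A between groups was detectable. Both genes missed the filter on low counts, which 5 of the 7 genes passed. FCGR2B passed with 6 libraries at or above the minimum of 0.46 CPM, all 3 of YKL-06-102, 2 of BSJ-03-123, 1 of palbociclib and 0 of DMSO.

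Per length, the adaptor FCER1G was the most abundant of the 7. In DMSO its level was 38.6 ± 3.3 CPM per kb of merged exons, against 4.67 ± 0.602 for FCGRT, 4.24 ± 0.398 for FCGR1A, 3.48 ± 0.214 for FCGR2A and 0.0455 ± 0.00414 for FCGR2B. FCGRT and FCGR1A differed by less than their spread on this scale. Per kb of the longest coding transcript the level of FCGRT was 10.8 ± 1.4, that of FCGR2A 7.67 ± 0.471 and that of FCGR1A 5.83 ± 0.547. FCGRT lay above FCGR1A by more than their spread on this second scale. The order of FCGR2A and FCGR1A also depends on the length used. The level of FCGR1A may also depend on how reads that match several genes were counted, which was not stated. Of its distinct 50-base transcript windows, 55.4% occur in another gene. With YKL-06-102 the levels per kb of merged exons were 40.4 ± 2.24 for FCER1G, 18.9 ± 0.425 for FCGRT, 10.3 ± 0.373 for FCGR2A and 4.35 ± 0.223 for FCGR1A, and both lengths gave this order.

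**Figure D1:**
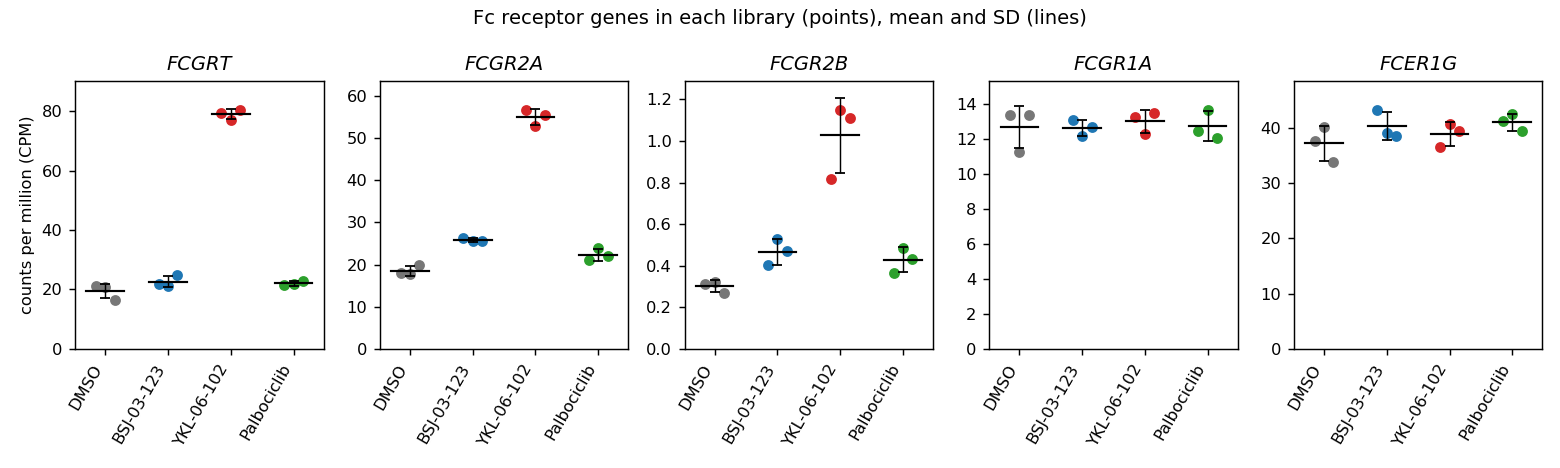
CPM of the 5 receptor genes that passed the low-count filter, 1 point per library, with the mean and SD of 3 libraries as lines and each axis starting at 0. YKL-06-102 libraries lie between 77.1 and 80.5 CPM for FCGRT and between 52.8 and 56.7 CPM for FCGR2A, above every other library, whereas the groups of FCGR1A and FCER1G overlap.

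FCGRT, the transport receptor, had the largest log2 fold change of the 5 tested genes, with YKL-06-102. Its level was 21.1, 20.7 and 16.6 CPM in DMSO replicates 1 to 3, and 79.4, 77.1 and 80.5 CPM in the YKL-06-102 replicates. With palbociclib it was 21.6, 21.7 and 23.0 CPM and with BSJ-03-123 22.0, 21.1 and 24.9 CPM. The YKL-06-102 libraries lay far above all others, and DMSO replicate 3 was the lowest library. YKL-06-102 differed from DMSO by a log2 fold change of 2.01 ± 0.065, or 4.03-fold (95% interval 3.68 to 4.42), which was rank 37 of the 14214 genes ordered from the highest log2 fold change.

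The other compounds moved FCGRT little. Their tests against DMSO reuse the DMSO libraries behind the choice of FCGRT, so the p-values are not independent of the choice. With BSJ-03-123 it rose by 0.21 ± 0.074 (edgeR quasi-likelihood adjusted p = 0.0334), although its libraries overlapped those of DMSO. The call did not hold when replicate 3 of DMSO (0.11), of BSJ-03-123 (0.13) or of YKL-06-102 (0.21) was left out. With palbociclib the value was 0.17 ± 0.073 and did not pass the test (edgeR adjusted p = 0.0758), with all 3 palbociclib libraries above those of DMSO. It passed when library totals replaced the TMM factors, with no filter on low counts and without DMSO replicate 1 or 2 (log2 fold changes from 0.19 to 0.22), and it was 0.071 without DMSO replicate 3 (edgeR adjusted p = 0.478).

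FCGRT lies in GRCh38 on chromosome 19 from 49506816 to 49526333, plus strand (ENSG00000104870), and no other annotated gene overlaps it. None of its 50-base transcript windows occurs in another annotated gene's transcripts. The partner of its product, B2M, was at 799 ± 16.8 CPM with DMSO and 765 ± 15.9 CPM with YKL-06-102 (-0.063 ± 0.031), and was not called with any compound. The tested neighbour NOSIP, whose start is 48.9 kb away, had a log2 fold change of 0.016 ± 0.045 with YKL-06-102. RCN3, which encodes a calcium-binding protein of the endoplasmic reticulum and starts 20.8 kb away, was called higher there (0.33 ± 0.066) and the small nucleolar RNA gene SNORD35B was not (0.19 ± 0.15).

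FCGR2A, which encodes the activating IgG receptor CD32a, was higher with every compound. Its level was 17.9, 17.8 and 19.8 CPM with DMSO, 21.0, 23.8 and 21.9 CPM with palbociclib, 26.3, 25.5 and 25.5 CPM with BSJ-03-123, and 56.7, 52.8 and 55.4 CPM with YKL-06-102. No library of a compound overlapped the DMSO range, and the 4 groups did not overlap each other. Palbociclib raised it by 0.27 ± 0.063 on the log2 scale (edgeR quasi-likelihood adjusted p = 0.00132), 1.21-fold. The value with BSJ-03-123, known when the genes were chosen, was 0.48 ± 0.063, or 1.4-fold (95% interval 1.28 to 1.53). The value with YKL-06-102 was 1.58 ± 0.057, or 2.98-fold (95% interval 2.75 to 3.23). The palbociclib call held when any 1 of the 12 libraries was left out, at 0.21 to 0.31. It rests on the same DMSO libraries as the differences known at the choice, so it is not independent of them.

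FCGR2A lies on chromosome 1 from 161505430 to 161524013, plus strand (ENSG00000143226), in a cluster of near copies. Of its distinct 50-base transcript windows 16.7% also occur in another gene's transcripts, 14.9% in FCGR2C and 3.21% in FCGR2B, and of its 100-base windows 6.74% do. The read length was not stated. FCGR2C had 2 counts with DMSO, 7 with palbociclib, 4 with BSJ-03-123 and 8 with YKL-06-102, or 0.174% to 0.463% of the FCGR2A counts. A long non-coding gene on the same strand, AL590385.2, shares 201 exonic bases with FCGR2A and had 15 counts in all.

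The promoters of FCGR1A, FCGR2A and FCGR2B are shown because FCGR2A and FCGR1A share a stretch of letters while their levels with YKL-06-102 differed, as given above for FCGR2A and below for FCGR1A. The sequences are from RefSeq (GRCh38.p14), from 250 bases before the RefSeq start and ending where an annotated exon begins, 5′ to 3′ on the plus strand. Capitals mark the core of the site of PU.1, an ETS factor of myeloid cells (GAGGAA, or TTCCTC on the other strand), and an element of the form bound by STAT factors (TTCNNNGAA, the same on both strands). The ranges are chr1:149782444-149782670 for FCGR1A, chr1:161505207-161505429 for FCGR2A and chr1:161662893-161663142 for the second of the RefSeq starts of FCGR2B, the one nearest its GENCODE start.
FCGR1A: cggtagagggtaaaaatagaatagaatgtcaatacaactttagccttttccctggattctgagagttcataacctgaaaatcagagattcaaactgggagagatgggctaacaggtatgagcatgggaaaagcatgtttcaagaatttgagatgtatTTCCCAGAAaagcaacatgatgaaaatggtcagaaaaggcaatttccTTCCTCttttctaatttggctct
FCGR2A: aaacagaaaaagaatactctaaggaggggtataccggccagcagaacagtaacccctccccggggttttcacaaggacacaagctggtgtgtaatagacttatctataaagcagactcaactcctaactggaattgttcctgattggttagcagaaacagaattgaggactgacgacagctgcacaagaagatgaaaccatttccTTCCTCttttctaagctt
FCGR2B: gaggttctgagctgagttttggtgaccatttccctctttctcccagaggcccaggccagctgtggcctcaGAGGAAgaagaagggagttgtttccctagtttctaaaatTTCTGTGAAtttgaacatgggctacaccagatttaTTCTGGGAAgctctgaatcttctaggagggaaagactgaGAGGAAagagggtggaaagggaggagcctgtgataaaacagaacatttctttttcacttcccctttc

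FCGR1A and FCGR2A share the 20-base stretch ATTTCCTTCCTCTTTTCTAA, which holds the PU.1 core letters. It starts 52 bases before the RefSeq start of FCGR1A and 51 before that of FCGR2A, and of 34943 promoter windows of 250 bases only these 2 hold it. The PU.1 core letters occur once in each of these windows and 2 times in the FCGR2B window shown, and 23.6% of all windows hold them on either strand. The STAT form occurs once in FCGR1A and 2 times in the FCGR2B window shown, where 6.56% of all windows hold it, and these letters are not in the FCGR2A window. The window before the other RefSeq start of FCGR2B and the 5 windows of FCGR3A hold neither motif. An E-box, CACGTG, which is its own reverse complement and is held by 6.32% of windows, is in none of the 6 members' windows that RefSeq gave. The window of FCGRT lies within an exon of a longer GENCODE transcript, so its letters are not shown, and neither it nor that of FCER1G holds any of the 3 motifs. A match of letters is a description and not a bound site.

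FCGR2B, the inhibitory IgG receptor gene, followed FCGR2A at a far lower level. Its counts were 6, 8 and 5 with DMSO, 9, 11 and 9 with palbociclib, 8, 11 and 10 with BSJ-03-123 and 20, 27 and 27 with YKL-06-102. All YKL-06-102 libraries lay above all others. The log2 fold change was 1.73 ± 0.34 with YKL-06-102, 0.61 ± 0.39 with BSJ-03-123 (edgeR quasi-likelihood adjusted p = 0.287) and 0.48 ± 0.39 with palbociclib (adjusted p = 0.404), and the latter pair did not pass the test. FCGR2B lies on chromosome 1 from 161663147 to 161678654, plus strand (ENSG00000072694).

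The counts of FCGR2B made up a similar share of those of FCGR2A in each group: 1.66% with DMSO, 1.92% with palbociclib, 1.81% with BSJ-03-123 and 1.86% with YKL-06-102. The exact binomial 95% intervals, which cover counting error only, were 0.993% to 2.6%, 1.28% to 2.77%, 1.21% to 2.62% and 1.46% to 2.35%. Of the 50-base windows of FCGR2B, 2.65% also occur in FCGR2A and 12.1% in FCGR2C. Whether reads from FCGR2A entered the FCGR2B count was not tested, so the FCGR2B value is uncertain.

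**Figure D2:**
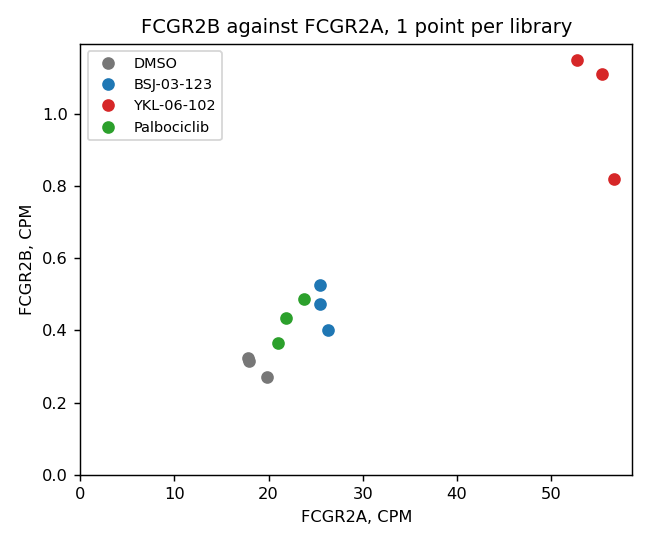
FCGR2B against FCGR2A in CPM, 1 point per library, coloured by group, both axes starting at 0. The 3 YKL-06-102 libraries lie at the upper right, from 0.819 to 1.15 CPM for FCGR2B, and the other 9 lie at or below 0.526 CPM.

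FCGR1A, which encodes the high-affinity IgG receptor CD64, showed no called difference in any contrast. Its level was 13.4, 11.3 and 13.4 CPM with DMSO, 12.5, 13.7 and 12.1 CPM with palbociclib, 13.1, 12.2 and 12.7 CPM with BSJ-03-123 and 13.3, 12.3 and 13.5 CPM with YKL-06-102. The groups overlapped throughout, and the lowest library was DMSO replicate 2. Against DMSO the log2 fold changes were 0.020 ± 0.080 with palbociclib (95% interval -0.14 to 0.18; edgeR adjusted p = 0.881), 0.0043 ± 0.081 with BSJ-03-123 (-0.16 to 0.17; adjusted p = 0.978) and 0.049 ± 0.079 with YKL-06-102 (-0.11 to 0.21). These intervals leave room for changes of up to 1.16-fold upwards.

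FCGR1A lies on chromosome 1 from 149782671 to 149792518, plus strand (ENSG00000150337), outside the FCGR2 and FCGR3 cluster. It is the member with the most shared sequence: 55.4% of its 50-base windows occur in another gene, 49.6% in FCGR1B and 24.7% in the pseudogene FCGR1CP, and 36.5% of its 100-base windows do. FCGR1B counts were 13.5% of those of FCGR1A with DMSO (95% interval 10.9% to 16.6%), 18.2% with palbociclib, 17.3% with BSJ-03-123 and 18.6% with YKL-06-102 (15.7% to 21.9%). FCGR1B itself was at 1.72 ± 0.165 CPM with DMSO and 2.43 ± 0.224 CPM with YKL-06-102, where it was called higher (0.51 ± 0.18). It did not pass with palbociclib (0.45 ± 0.18, edgeR adjusted p = 0.0604) or BSJ-03-123 (0.36 ± 0.19, adjusted p = 0.156). Exons on the opposite strand, 177 bases of HIST2H2BF and 561 of AC243772.2, overlap FCGR1A, and these genes had 77 and 9 counts in a stranded kit whose counting setting was not stated.

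FCER1G, the shared adaptor chain, showed no called change in the main fit, and its calls with palbociclib and BSJ-03-123 depended on the processing. It was at 37.6, 40.2 and 33.9 CPM with DMSO, 41.2, 42.5 and 39.4 CPM with palbociclib, 43.3, 39.1 and 38.6 CPM with BSJ-03-123 and 36.6, 40.8 and 39.5 CPM with YKL-06-102. Every compound group overlapped the DMSO range. The log2 fold change was 0.14 ± 0.059 with palbociclib (95% interval 0.014 to 0.26, edgeR adjusted p = 0.0792). It was 0.11 ± 0.060 with BSJ-03-123 (-0.014 to 0.23, adjusted p = 0.189) and 0.059 ± 0.059 with YKL-06-102 (-0.062 to 0.18). None was called, although the palbociclib interval, which is not adjusted for the number of genes, lies wholly on the higher side. Without DMSO replicate 2 FCER1G was called higher with palbociclib (0.20) and BSJ-03-123 (0.17), and library totals gave the same calls (0.18 and 0.15). It was also called with palbociclib when no filter on low counts was used (0.15). Without DMSO replicate 3 the values were 0.070 with palbociclib and 0.041 with BSJ-03-123, and without BSJ-03-123 replicate 1 the latter was 0.052, none of them called. FCER1G lies on chromosome 1 from 161215234 to 161220699, plus strand (ENSG00000158869), with 0.52% of its 50-base windows in another gene.

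Of the 7 genes 5 were tested. With palbociclib 1 of these 5 was called higher, FCGR2A, where 15.6% of all tested genes were called higher, so the count is near that share. With BSJ-03-123 2 were, FCGRT and FCGR2A, the latter with its value known at the choice, beside 12.4% of all tested genes. With YKL-06-102 3 were, FCGRT, FCGR2A and FCGR2B, beside 15.6% of all tested genes, a count that the choice of members fixed in part and from which nothing is read. None was called lower with any compound, where 17.6% of all tested genes were called lower with palbociclib, 15.7% with BSJ-03-123 and 21.3% with YKL-06-102. Over all tested genes, library totals in place of TMM factors gave 3396 higher and 1949 lower genes with palbociclib in place of 2224 and 2507, 2852 and 1765 with BSJ-03-123 in place of 1763 and 2234, and 2877 and 2422 with YKL-06-102 in place of 2215 and 3034. The 3 comparisons share the DMSO libraries, which also lie behind the choice of FCGRT and FCGR2A.

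**Figure D3:**
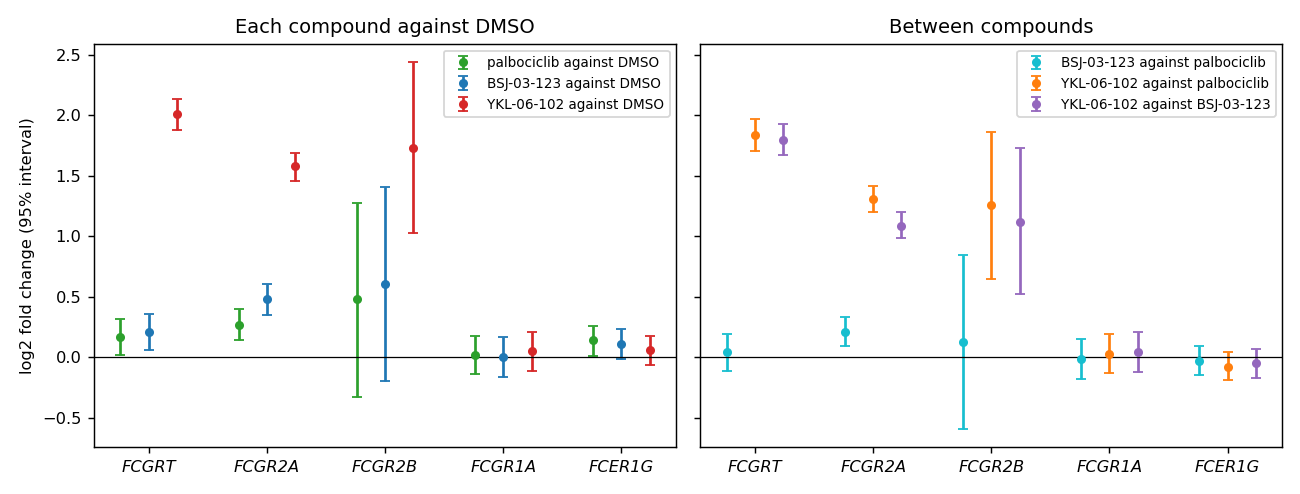
Log2 fold change of the 5 tested receptor genes with 95% intervals from the edgeR fit, each compound against DMSO on the left and the 3 pairs of compounds on the right. For FCGRT and FCGR2A the intervals with YKL-06-102 lie above those of both other compounds, for FCGR1A they overlap, and for FCER1G they overlap as well.

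The 3 compounds were compared directly at the same dose and time, in 3 pairs. BSJ-03-123 against palbociclib gave 0 of the 5 tested receptor genes as called with edgeR, DESeq2 and limma-voom. With edgeR 0.155% of all tested genes were called. FCGR2A was at 25.8 ± 0.488 CPM with BSJ-03-123 and 22.2 ± 1.43 CPM with palbociclib. The difference was 0.21 ± 0.060 (95% interval 0.091 to 0.33) and was not called, with all 3 BSJ-03-123 libraries above all 3 of palbociclib. The same BSJ-03-123 libraries gave the difference from DMSO known at the choice, so this value is a description. FCGRT differed by 0.040 ± 0.072 (-0.11 to 0.19, adjusted p = 0.933), FCER1G by -0.027 ± 0.058 (-0.15 to 0.092, adjusted p = 0.944) and FCGR1A by -0.015 ± 0.080 (-0.18 to 0.15, adjusted p = 0.982).

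YKL-06-102 lay above both other compounds for the same 3 genes that were higher against DMSO. FCGRT was 3.58-fold its palbociclib level (95% interval 3.28 to 3.91) and 3.48-fold its BSJ-03-123 level (3.19 to 3.81). FCGR2A was 2.47-fold (2.29 to 2.67) and 2.13-fold (1.98 to 2.3) those levels. FCGR2B was 2.39-fold (1.57 to 3.64) and 2.18-fold (1.43 to 3.33). For FCGR1A the log2 differences were 0.030 ± 0.077 and 0.045 ± 0.079, and for FCER1G -0.077 ± 0.057 and -0.049 ± 0.058, none of them called. Of all tested genes 12.7% were called higher with YKL-06-102 than with palbociclib and 10.4% than with BSJ-03-123. The labels name no difference in structure between the 2 conjugates.

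Around FCGR2A, the changes with YKL-06-102 were seen at FCGR2A and FCGR2B and not called at the other tested genes between and beside them. HSPA6, a heat shock gene whose start is 19.1 kb from that of FCGR2A, was at 0.28 ± 0.25, and AL831711.1, 72.0 kb to the other side, was at 0.76 ± 0.33 (edgeR adjusted p = 0.0636). FCRLA and FCRLB, Fc receptor-like genes that follow FCGR2B, were at -0.25 ± 0.36 and -0.062 ± 0.18. Upstream, TOMM40L, a neighbour of FCER1G, was called higher with YKL-06-102 (0.16 ± 0.056) and palbociclib (0.23 ± 0.056). HSPA6, FCRLA and FCRLB averaged 0.916, 0.63 and 2.26 CPM, so their intervals are wide.

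**Figure D4:**
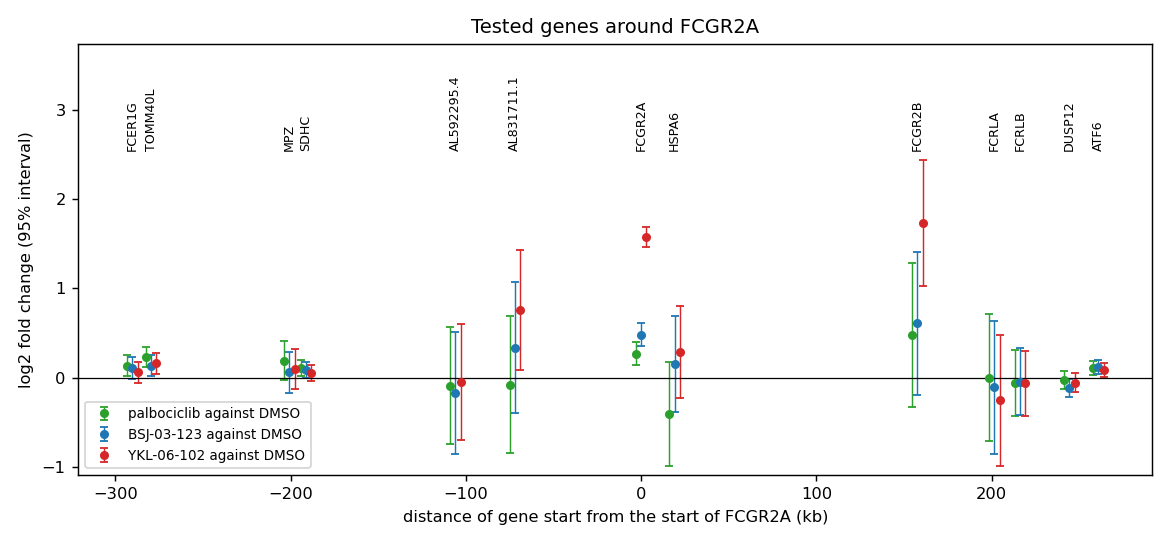
Log2 fold change against DMSO with 95% intervals for every tested gene whose start lies within 300 kb of that of FCGR2A, plotted by distance of gene starts in kb, with 3 colours for the compounds. FCGR2A and FCGR2B stand above the other genes with YKL-06-102, at 1.58 and 1.73, and FCER1G at the left edge is at 0.059.

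Over the 12 libraries FCGRT and FCGR2A varied together, with Pearson r = 0.965 of log2 CPM, whereas the r of FCER1G was 0.0217 with FCGR2A and -0.00335 with FCGRT, and that of FCGR1A 0.256 and 0.177. FCGRT and FCGR2A were chosen for their higher counts with YKL-06-102, so the choice largely fixed their r. All of these are descriptions over 12 libraries in 4 groups. Among 10347 genes with log2 CPM averaging at least 2, the 3 most like FCGRT were LIG3, a DNA ligase gene (r = 0.991), FRMD4A (0.99) and SIGLEC1, a sialic acid receptor gene of macrophages (0.989). The 3 most like FCGR2A were PLCB3, a phospholipase gene (0.993), DLG4, a scaffold gene (0.991), and the arrestin family gene ARRDC4 (0.99). Their log2 fold changes with YKL-06-102 ran from 0.52 for PLCB3 and 0.8 for LIG3 to 2.14 for SIGLEC1 and 2.3 for ARRDC4. For FCER1G the most alike was TYW1B (0.91) and for FCGR1A VPS53 (0.931).

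The gene lists that follow were drawn up with earlier results of these libraries known. Their counts beside all tested genes are therefore descriptions. Of 20 relatives of the receptor genes listed, 10 were tested, and 2 were called higher with palbociclib, 0 with BSJ-03-123 and 2 with YKL-06-102, beside 15.6%, 12.4% and 15.6% of all tested genes. None was called lower. The list had medians of 0.11, 0.043 and 0.062 beside 0.014, 0.0075 and -0.017 over all tested genes. The strongest relatives were TRIM21, the cytosolic antibody receptor, at 45.3 ± 0.351 CPM with DMSO and 48.3 ± 0.921 CPM with YKL-06-102 (0.093 ± 0.044, not called), and FCER2, the IgE receptor CD23, at 44.0 ± 0.707 and 44.9 ± 0.566 CPM (0.030 ± 0.042, not called). FCMR, the IgM receptor gene, rose with palbociclib from 3.89 ± 0.497 to 5.33 ± 0.669 CPM (0.45 ± 0.13, edgeR adjusted p = 0.00626) and was at 3.29 ± 0.0916 CPM with YKL-06-102. FCAMR, a receptor gene for IgA and IgM, rose with palbociclib too (0.43 ± 0.15, adjusted p = 0.0251). FCER1A, the IgE-binding chain of mast cells, was at 1.07 ± 0.275 CPM with DMSO and 1.64 ± 0.0985 CPM with YKL-06-102, where it was called (0.58 ± 0.23). MS4A2, FCRLA, FCRLB and PIGR were not called with any compound.

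Of 14 tested genes listed as ITAM adaptors and FCER1G-linked receptors, 8 were higher with palbociclib, 6 with BSJ-03-123 and 6 with YKL-06-102. Of all tested genes, 15.6%, 12.4% and 15.6% were. The list also holds HCST, CLEC12A and receptors that pair with TYROBP, so its counts do not describe receptors of the FCER1G chain alone. The number lower was 0 with each compound, and the medians were 0.17, 0.15 and 0.19. TYROBP, the other ITAM adaptor of myeloid cells, was at 161 ± 10.1 CPM with DMSO, 179 ± 4.09 with palbociclib (0.15 ± 0.040, edgeR adjusted p = 0.00392), 176 ± 8.4 with BSJ-03-123 (0.13 ± 0.040, adjusted p = 0.0145) and 182 ± 2.31 with YKL-06-102 (0.18 ± 0.039). SIRPB1, an activating receptor that signals through TYROBP, rose with palbociclib (0.37 ± 0.057) and BSJ-03-123 (0.45 ± 0.057) and was at 0.70 ± 0.055 with YKL-06-102. TREM2, which also pairs with TYROBP, rose with palbociclib (0.46 ± 0.15) and BSJ-03-123 (0.74 ± 0.15) and was at 3.31 ± 0.13 with YKL-06-102. OSCAR, a receptor that uses the FCER1G chain, rose with palbociclib (0.19) and BSJ-03-123 (0.20 ± 0.045) and was at 0.21 ± 0.044 with YKL-06-102. LILRA1 and LILRA2 were called higher with palbociclib (0.223 and 0.322) and BSJ-03-123 (0.163 and 0.274). With YKL-06-102 neither was called (0.04 and -0.073).

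Among 15 tested ITIM and other inhibitory receptor genes, 10 were higher with palbociclib and 9 with BSJ-03-123, beside 15.6% and 12.4% of all tested genes, and 0 were lower. With YKL-06-102 6 were higher and 2 lower, beside 15.6% and 21.3% of all tested genes. LILRB2 rose with palbociclib (0.48 ± 0.080) and BSJ-03-123 (0.46 ± 0.082) and was at 0.72 ± 0.078 with YKL-06-102. SIGLEC7 was at 0.35 ± 0.098, 0.41 ± 0.099 and 0.59 ± 0.095, all called. LILRB1 rose with palbociclib (0.185) and BSJ-03-123 (0.304) and was at 0.83 ± 0.061 with YKL-06-102. The 2 genes called lower with YKL-06-102 were CD300LF (-0.178) and PECAM1 (-0.168). Both were called higher with palbociclib (0.264 and 0.129). CD300A was called higher with palbociclib (0.286) and BSJ-03-123 (0.455) but not with YKL-06-102 (0.182). The medians were 0.24, 0.15 and 0.092.

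Of 57 tested signalling genes downstream of Fc receptors, 23 were higher and 8 lower with palbociclib, 21 and 8 with BSJ-03-123 and 16 and 17 with YKL-06-102, with medians of 0.079, 0.047 and 0.0065. Of all tested genes, 15.6% were higher and 17.6% lower with palbociclib, 12.4% and 15.7% with BSJ-03-123 and 15.6% and 21.3% with YKL-06-102, and the list's shares called lower with palbociclib and BSJ-03-123 were near these. SYK, the kinase that binds phosphorylated ITAMs, was at 208 ± 5.11 CPM with DMSO and 210 ± 1.32 CPM with YKL-06-102 and was called with no compound. LYN, a SRC-family kinase that phosphorylates them, rose with BSJ-03-123 (0.12 ± 0.032, edgeR adjusted p = 0.00568) and was at 0.28 ± 0.032 with YKL-06-102. FGR, of the same family, rose with palbociclib from 38.7 ± 0.858 to 53.1 ± 0.346 CPM (0.45 ± 0.046). It was also called higher with BSJ-03-123 (0.402) and YKL-06-102 (0.417). SRC was called higher with each compound, at 0.29 with palbociclib, 0.377 with BSJ-03-123 and 0.81 ± 0.063 with YKL-06-102. CYBB, the catalytic subunit of the phagocyte oxidase, rose with palbociclib (0.427) and BSJ-03-123 (0.56 ± 0.13) and was at 0.72 ± 0.13 with YKL-06-102.

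Within the same list, PTPN6, which encodes the phosphatase SHP-1, rose with palbociclib (0.20 ± 0.032) and BSJ-03-123 (0.20 ± 0.032) and was at 0.19 ± 0.032 with YKL-06-102. INPP5D, the lipid phosphatase SHIP1 that acts below FCGR2B, rose with palbociclib (0.12 ± 0.032, edgeR adjusted p = 0.00452) and BSJ-03-123 (0.10 ± 0.032, adjusted p = 0.0168) and was called lower with YKL-06-102 (-0.088 ± 0.032). PLCG1 fell with palbociclib (-0.54 ± 0.075) and BSJ-03-123 (-0.55 ± 0.077) and was at -0.45 ± 0.073 with YKL-06-102. SPHK1, a sphingosine kinase gene, fell with palbociclib (-0.74 ± 0.083) and BSJ-03-123 (-0.60 ± 0.083) and was called lower with YKL-06-102 too (-0.422).

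Of 19 tested genes of FCGRT's partner and of endosomal recycling, 1 was higher and 1 lower with palbociclib, 2 and 2 with BSJ-03-123 and 2 and 4 with YKL-06-102. The background over all tested genes was 15.6% higher and 17.6% lower, 12.4% and 15.7%, and 15.6% and 21.3% in that order, and the YKL-06-102 counts were near it. EHD1, an endosomal recycling ATPase, rose with palbociclib (0.14 ± 0.042) and BSJ-03-123 (0.17 ± 0.042) and was at 0.29 ± 0.041 with YKL-06-102. Its relative EHD4 was at 0.48 ± 0.085 there. VPS35, of the retromer, fell with BSJ-03-123 (-0.08 ± 0.031) and was at -0.22 ± 0.031 with YKL-06-102.

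Of 31 tested myeloid transcription factor genes, 10 were higher and 3 lower with palbociclib, 10 and 1 with BSJ-03-123 and 14 and 5 with YKL-06-102, where all tested genes gave 15.6% and 17.6%, 12.4% and 15.7%, and 15.6% and 21.3%. SPI1, which encodes PU.1, was at 315 ± 21.3 CPM with DMSO, 333 ± 8.81 with palbociclib and 332 ± 6.26 with BSJ-03-123, neither of which was called, and 437 ± 8.13 with YKL-06-102 (0.47 ± 0.037). STAT3 rose with palbociclib (0.38 ± 0.040) and BSJ-03-123 (0.36 ± 0.040), as did STAT6 (0.32 ± 0.030 and 0.30 ± 0.030). With YKL-06-102 both were called higher too (0.394 and 0.256). TFE3 rose with palbociclib (0.298) and BSJ-03-123 (0.32 ± 0.049) and was at 0.71 ± 0.047 with YKL-06-102. Of 18 tested phagocytosis and complement receptor genes, 3 were higher and 1 lower with palbociclib, 5 and 1 with BSJ-03-123 and 6 and 1 with YKL-06-102, against the same shares of all tested genes. The palbociclib count of higher genes was near its share of 15.6%. CD36, a scavenger receptor gene, was called higher with each compound (0.18 ± 0.052, 0.26 ± 0.053 and 0.50 ± 0.051 in that order). The lectin gene CD209 rose with BSJ-03-123 (0.43 ± 0.071) and was at 1.77 ± 0.063 with YKL-06-102. The receptor kinase gene TYRO3 was the one that fell with palbociclib (-1.25 ± 0.11) and BSJ-03-123 (-1.09 ± 0.11), and was at -0.89 ± 0.1 with YKL-06-102.

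**Figure D5:**
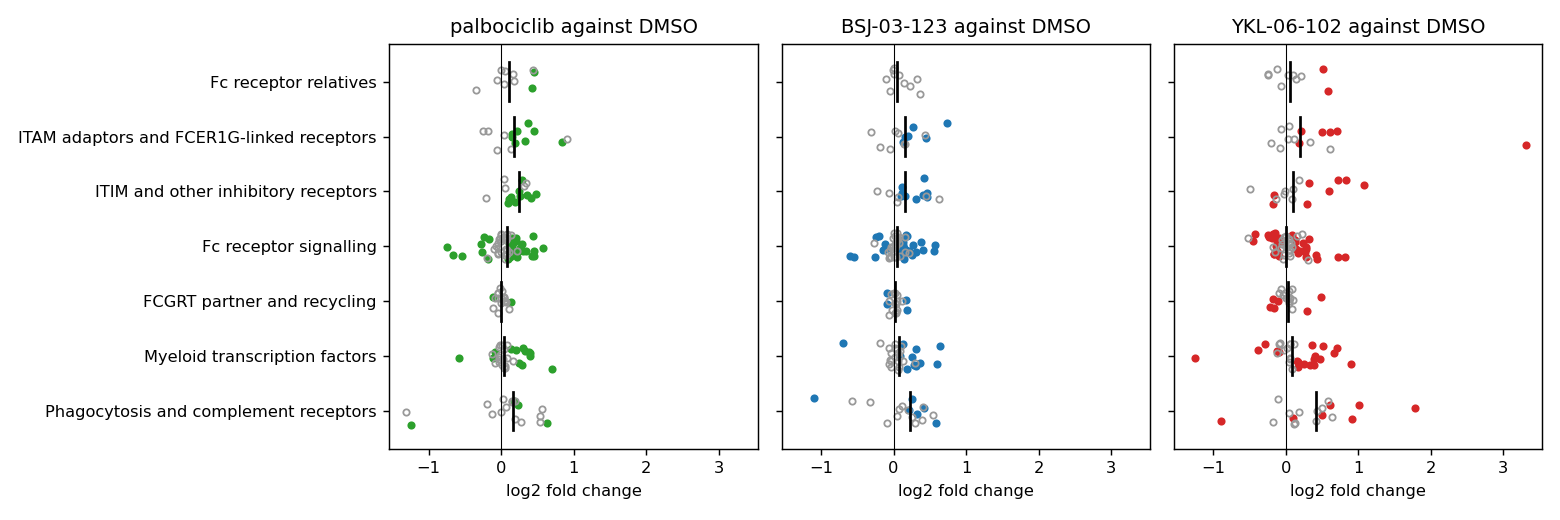
Log2 fold change against DMSO of the tested genes in 7 lists around the Fc receptors, 1 panel per compound. Filled points are called genes, open points are not called, and the black line is the list's median; the highest median is 0.42, of the phagocytosis list with YKL-06-102.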

How the data were processed

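Polyadenylated RNA of 12 MV4-11 libraries was measured as raw read counts per Ensembl gene, which the authors deposited in 1 table without normalization. Libraries were made with a stranded kit, per the labels' protocols. Trimmomatic 0.36, STAR 2.5.2b, HTSeq and the build hg38 are named, per the submitters' processing notes. Which annotation and strand setting were used, and how reads that match several genes were counted, was not stated in these sources. Every library of a group was a column of its own, and groups were taken from the labels.

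IDs were matched to GENCODE 29 (57447 of 58051). Genes were filtered with filterByExpr (minimum count 10, minimum total count 15) and fitted with edgeR 4.0.16 in R 4.3.3 (TMM, quasi-likelihood, 8 residual degrees of freedom), with Benjamini-Hochberg adjustment over 14214 genes. Standard errors and 95% intervals are Wald values. As a check of the code, the fit was run on simulated counts. Unlike the data, these had the same spread for all genes and no outlying library. The alternatives were library totals, no filter, DESeq2 1.42.0, limma-voom (limma 3.58.1), a replicate block and leaving out each library.

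The 7 genes and the lists were chosen with earlier results of these data known. Beyond the 7 genes, the text names called list members with the largest changes (mean log2 CPM of at least 2, up to 4 per list and contrast), all tested relatives, B2M, TYROBP, SYK, LYN, SPI1, INPP5D and PTPN6, the nearest 2 tested neighbours on each side (some results are not reported here) and the 3 genes with the highest Pearson r. Shared windows were counted over all GENCODE transcripts.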

Additional observations from a re-analysis of the deposited data

How the results depend on the processing

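Counts of called receptor genes with YKL-06-102, against DMSO, palbociclib and BSJ-03-123, stayed at 3 under all alternatives, and those of BSJ-03-123 against palbociclib at 0. With palbociclib the count of 1 became 3 with library totals and with no filter on low counts, and ranged from 1 to 3 without single libraries (2 without DMSO replicate 1, 3 without DMSO replicate 2). With BSJ-03-123 the count of 2 ranged from 1 to 3 without single libraries, and was 1 without replicate 3 of DMSO, BSJ-03-123 or YKL-06-102, where FCGRT lost its call. It was 3 with library totals, which added FCER1G, and without DMSO replicate 2. DESeq2, limma-voom and the replicate block changed none of these counts.

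The values that changed sign did so only when a library was left out, and none of them was called. For FCGR1A the runs ranged from -0.0694 to 0.0566 with palbociclib, -0.085 to 0.04 with BSJ-03-123 and -0.0175 to 0.108 with YKL-06-102 against DMSO. They ranged from -0.0529 to 0.0389 for BSJ-03-123 against palbociclib and -0.00436 to 0.106 for YKL-06-102 against palbociclib. For FCER1G they ranged from -0.00299 to 0.143 for YKL-06-102 against DMSO, -0.0767 to 0.00403 for BSJ-03-123 against palbociclib and -0.0768 to 0.0257 for YKL-06-102 against BSJ-03-123, and for FCGRT from -0.0344 to 0.087 for BSJ-03-123 against palbociclib. The cause was not tested.

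Same-numbered libraries showed little shared deviation: 2 of 18 pairs had a correlation over 0.1 (range -0.162 to 0.229). With 3 libraries per group this cannot show whether the numbers pair the libraries. With the replicate block 1 receptor gene was called with palbociclib, 2 with BSJ-03-123 and 3 with YKL-06-102. Depth limits FCGR2B, FCAR and FCGR3A.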
